A study of Rattus norvegicus with 6 samples.

Results

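The 9 genes described here set the balance between burning and making fat: *Cpt1a*, *Acadm*, *Acadl* and *Pdk4* on the side of fat oxidation, and *Acaca*, *Fasn*, *Scd*, *Srebf1* and *Mlxipl* on the side of lipogenesis. Their members are all accessible sites (ACS) whose nearest gene in the deposited table is 1 of these genes, which gave 55 of 101603 distinct ACS, and each of the 9 genes had at least 1. *Pdk4* held 16 sites, *Acadl* 9, *Acadm* 8, *Srebf1* 7, *Cpt1a* 6, *Scd* 4, *Acaca* 2, *Mlxipl* 2 and *Fasn* 1. Chromatin accessibility was measured by ATAC-seq, in which the Tn5 transposase inserts adapters into open DNA, in islet cells of Sprague–Dawley rats, for which no treatment is given in either group. The Adult group was 3 male rats of around 90 days with free access to chow, 1 library each. The P10 group was 3 litters of nursed male and female pups aged 10 days, 1 library each, with the pancreases of 3 to 5 pups pooled. Adult islets were freed by collagenase injected into the pancreatic duct and pup islets by shaking in collagenase, so age, diet, sex and isolation changed together and cannot be told apart. After isolation, islets of both groups were kept for 2 h in medium with serum and 11 mM glucose before their cells were dissociated.

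Mitochondria burn long-chain fatty acids only after carnitine palmitoyltransferase, encoded by *Cpt1a*, has joined them to carnitine for import. Inside, the acyl-CoA dehydrogenases of *Acadl* and *Acadm* take the first step of each round of β-oxidation. The kinase of *Pdk4* switches off pyruvate dehydrogenase and so keeps glucose carbon out of the same mitochondria when fat is the fuel. In the cytosol, the carboxylase of *Acaca* makes malonyl-CoA, which both feeds the fatty acid synthase of *Fasn* and inhibits *Cpt1a*, and the desaturase of *Scd* then introduces a double bond. *Srebf1* and *Mlxipl* encode the transcription factors SREBP-1 and ChREBP, which turn on lipogenic genes in response to insulin and to glucose. Milk is rich in fat and chow is rich in carbohydrate, which is why these genes are of interest across weaning, and the block of *Cpt1a* by malonyl-CoA at high glucose is a long-discussed signal for insulin release in β-cells.

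RefSeq promoter sequences are shown for *Pdk4*, whose distant sites carried most of the called differences while its promoter did not, for *Acadm*, which had the most accessible promoter of the 9 genes, and for *Srebf1*, which is listed with 2 starts. Each sequence is the 250 bases before a RefSeq start in the GRCr8 assembly, read 5′ to 3′ on the strand of the gene, in lower case with matches to the searched motifs in capitals. *Pdk4* is at chr4:34568330-34568579, *Acadm* at chr2:245542865-245543114, the upstream *Srebf1* start at chr10:45529165-45529414 and the downstream *Srebf1* start at chr10:45519011-45519260, all on the minus strand.
Pdk4: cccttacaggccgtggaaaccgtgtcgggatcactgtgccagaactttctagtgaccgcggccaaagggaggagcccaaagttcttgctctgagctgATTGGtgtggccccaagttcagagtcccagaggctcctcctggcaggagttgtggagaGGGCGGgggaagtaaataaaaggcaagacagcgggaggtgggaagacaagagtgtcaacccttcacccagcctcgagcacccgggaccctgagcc
Acadm: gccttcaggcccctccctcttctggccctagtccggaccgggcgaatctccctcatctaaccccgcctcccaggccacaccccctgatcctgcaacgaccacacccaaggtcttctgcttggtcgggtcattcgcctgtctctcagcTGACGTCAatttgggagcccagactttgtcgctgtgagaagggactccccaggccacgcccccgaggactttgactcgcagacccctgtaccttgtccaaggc
Srebf1 upstream start: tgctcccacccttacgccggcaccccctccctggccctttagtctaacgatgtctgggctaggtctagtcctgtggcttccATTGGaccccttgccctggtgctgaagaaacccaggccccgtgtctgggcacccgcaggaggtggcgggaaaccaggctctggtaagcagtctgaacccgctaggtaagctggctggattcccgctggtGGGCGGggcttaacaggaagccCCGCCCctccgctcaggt
Srebf1 downstream start: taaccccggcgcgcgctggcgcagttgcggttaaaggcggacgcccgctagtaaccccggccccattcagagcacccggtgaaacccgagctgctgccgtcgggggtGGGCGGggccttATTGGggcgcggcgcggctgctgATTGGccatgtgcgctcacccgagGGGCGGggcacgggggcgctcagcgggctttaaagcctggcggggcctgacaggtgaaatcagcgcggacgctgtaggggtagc
The search covered both strands of all 33469 RefSeq promoters over the same 250 bases, and no 2 of the matches shown overlap; ATTGG and CCGCCC are the CCAAT and GC boxes read from the other strand. The *Pdk4* promoter held a CCAAT box (CCAAT, which 34.0% of all promoters held) 153 to 149 bases before the start and a GC box (GGGCGG, 30.5% of promoters) 95 to 90 bases before it. The *Acadm* promoter held a full cAMP response element (TGACGTCA, 1.59% of promoters) 103 to 96 bases before the start. The upstream *Srebf1* promoter held 1 CCAAT box and 2 GC boxes, and the downstream one held 2 of each. *Mlxipl* has 2 entries whose starts lie close together, both with 2 CCAAT boxes, and the entries of *Cpt1a* and *Scd* held none of the motifs. An E-box (CACGTG, 5.59% of promoters), a FOXO site (GTAAACA, 3.21%) and the core of the SREBP element (TCACCCCAC, 0.409%) were searched and matched in no promoter of the members. Nor was there a match to the pair of E-boxes with 5 bases between, searched as a carbohydrate response element (0.0% of promoters). The repeated AGGTCA with 1 base between, searched as a PPAR element (0.0508%), was also unmatched. Only exact letters were searched, and hardly any promoter held either pattern. Their absence here therefore cannot tell whether such elements are present. *Acadl*, *Acaca* and *Fasn* are not in the promoter table. These matches describe letters in the current assembly, whereas the ACS below have Rn5 coordinates.

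All values below start from raw counts, the number of Tn5 insertions that each library placed within an ACS. The adult libraries held 7916919 to 11903909 integrations in ACS and the P10 libraries 13491534 to 21168463, so the P10 values carry less counting error. Levels are given as CPM, the count in an ACS over the sum of all its library's counts in ACS, scaled to 1000000 and adjusted with TMM factors (edgeR's trimmed mean of log ratios). Differences are log2 fold changes of Adult over P10 with their standard error (SE), from edgeR's quasi-likelihood test fitted on all 101603 ACS with Benjamini-Hochberg adjustment (FDR). An ACS was called at p under 0.05 and FDR under 0.2, the limits of the study. Sites are named by their distance from the gene start in kb, negative upstream. The table sorts them into a TSS class up to 1000 bp from a start, a PROXIMAL class up to 10000 bp and a DISTAL class beyond. The replicates are the 3 adult animals and the 3 litters.

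Over the 55 sites, the share called different between the ages was close to that of all ACS. In adults 6 sites (10.9%) were called more accessible, against 12.3% of all ACS, and 3 (5.45%) less accessible, against 6.63% of all ACS. The other 46 sites did not pass the test. The median log2 fold change was -0.10 over the 55 sites and -0.01 over all ACS. All adults were above all P10 libraries in 5 of the sites, as in 13.8% of all ACS, and all adults were below in 6, as in 10.9% of all ACS. These shares are near those of all ACS. The calls were unevenly placed among the 9 genes: 5 of the 6 sites that rose are listed for *Pdk4*, the other rose at *Acadl*, and 1 site each fell at *Acadm*, *Acadl* and *Cpt1a*.

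**Figure D1:**
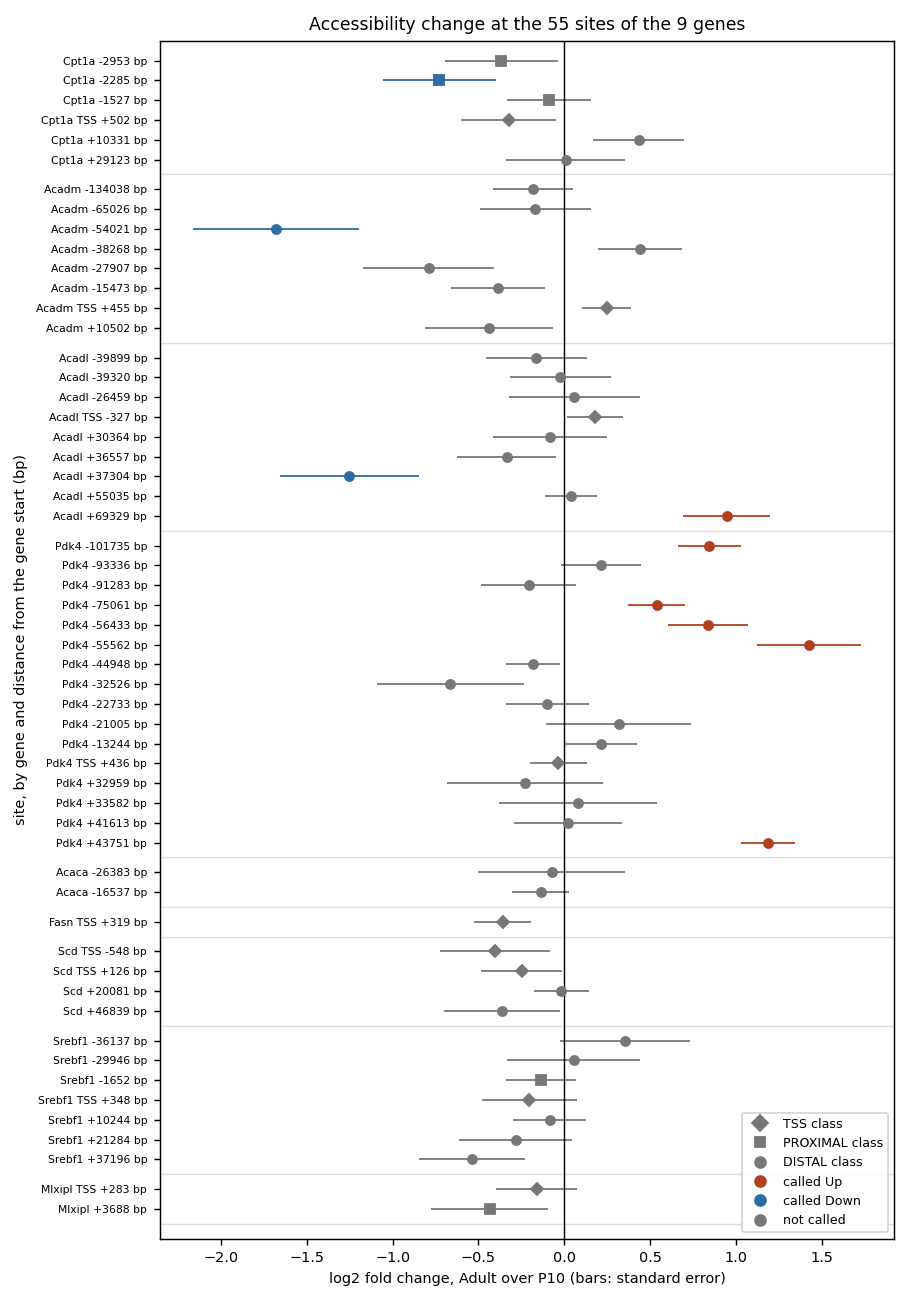
Log2 fold change (Adult over P10, x axis) with its standard error for each of the 55 sites, listed by gene and by distance from the gene start, with the class as the symbol and the call as the colour. The 6 Up sites stand to the right at *Pdk4* and *Acadl*, the 3 Down sites to the left at *Cpt1a*, *Acadm* and *Acadl*, and the 16 lipogenic sites hold no call.

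Of the 9 TSS-class sites 0 were called in either direction with edgeR, DESeq2 or limma voom, while among all 11055 TSS-class ACS 2.73% were called Up and 7.87% Down. Cyclic loess called the *Acadm* promoter Up and the *Fasn* promoter Down, robust edgeR, column sums, DESeq2 size factors and a mean of at least 50 counts called the *Fasn* promoter Down, and total reads called all 9 Down. Their median log2 fold change was -0.20, beside -0.10 over all TSS-class ACS, and 1 of the 9 had an unadjusted p under 0.05. Per kb of site, the *Acadm* promoter was the most accessible, at 157 CPM per kb in adults and 132 in P10. It stood at the 99.6th percentile of the TSS class. The *Acadl* promoter followed with 46.8 and 41.2 CPM per kb. The promoters of *Fasn* (29.7 and 38.1), *Pdk4* (29.3 and 30.0) and *Mlxipl* (21.8 and 24.5) lay in the middle of the class. The lowest were those of *Srebf1* (15.3 and 17.7), *Scd* (12.7 and 15.1 at the larger of its 2 promoter sites) and *Cpt1a* (11.7 and 14.7), at or below the 28.5th percentile.

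**Figure D2:**
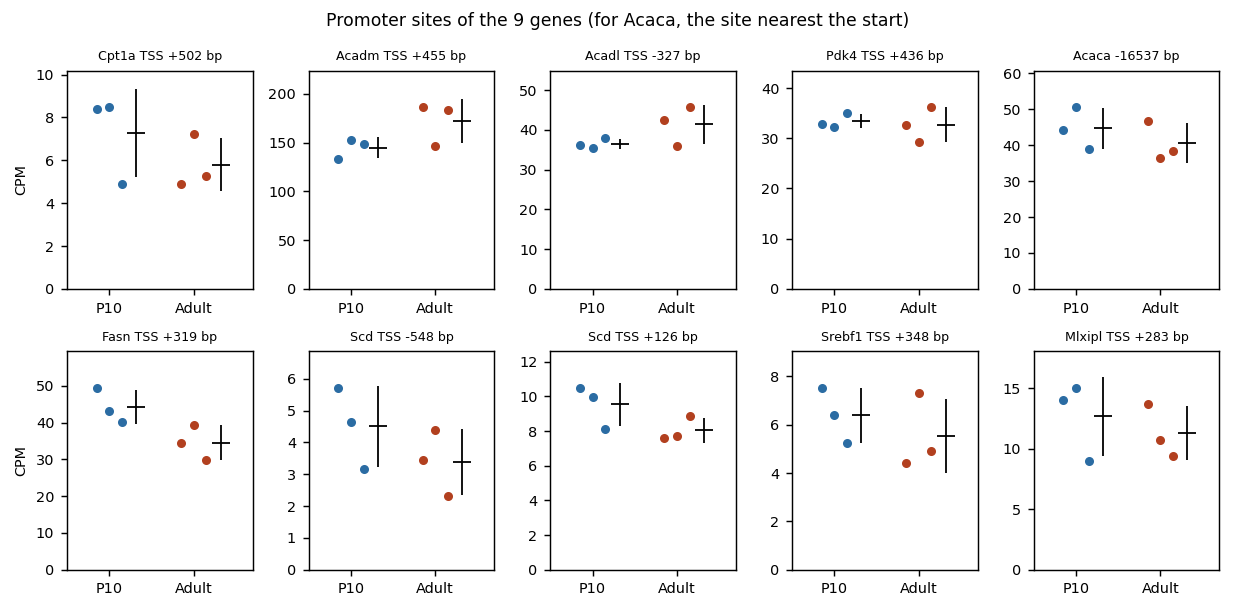
CPM in each library (points) at the TSS-class sites of 8 genes and at the site nearest the start of *Acaca*, which has no TSS-class site, with the mean and SD beside each group of 3. The groups overlap at every site except *Fasn*, where the adult points lie below the P10 points, as at 1723 of all 11055 TSS-class ACS.

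*Pdk4* held the difference with the smallest FDR among the 55 sites. Its site at +43.8 kb (Rn5 chr4:30419949-30420484), beyond the end of the gene, measured 92.6, 74.4 and 96.7 CPM in the adults and 37.2, 36.2 and 42.3 CPM in P10. All adult libraries were far above all P10 libraries. The fold was 2.28, a log2 fold change of 1.19 (SE 0.16), with FDR 1.2e-05 in edgeR's quasi-likelihood test. It was among the most accessible DISTAL sites, at the 99.5th percentile of its class per kb. Its next gene is *Asb4*, whose end lies 12.7 kb away, so the assignment to *Pdk4* is by nearest start only.

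Upstream of *Pdk4*, 4 of 11 sites rose, all of them of the DISTAL class, in which 13.8% of all ACS were called Up. The site at -102 kb (chr4:30565435-30566272) measured 35.8, 28.5 and 41.8 CPM in adults and 20.03, 17.6 and 21.3 CPM in P10, a log2 fold change of 0.84 (SE 0.18, edgeR FDR 0.00314) without overlap. The site at -55.6 kb (chr4:30519262-30519599) measured 12.7, 4.97 and 11.0 CPM in adults and 4.18, 3.07 and 3.33 CPM in P10. Its log2 fold change of 1.43 (SE 0.30, edgeR FDR 0.00246) was the largest increase of the 55, and the lowest adult library was only just above the highest P10 library. A neighbouring site at -56.4 kb (chr4:30520133-30520578) measured 28.9, 14.5 and 27.7 CPM in adults and 16.2, 12.6 and 10.9 CPM in P10, a log2 fold change of 0.84 (SE 0.23, edgeR FDR 0.0208). There the groups overlapped, because Adult 5 lay below P10 1. The site at -75.1 kb (chr4:30538761-30539444) measured 80.2, 62.7 and 83.1 CPM in adults and 63.2, 42.4 and 49.8 CPM in P10, a log2 fold change of 0.54 (SE 0.17, edgeR FDR 0.0408). The same 2 libraries overlapped, and without P10 replicate 2 this site was no longer called (log2 fold change 0.40). Adult 5 was the lowest adult library at all 5 Up sites of *Pdk4*.

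The remaining *Pdk4* chromatin did not pass the test. The promoter site at +0.436 kb (chr4:30463264-30464379) measured 32.6, 29.2 and 36.2 CPM in adults and 32.9, 32.3 and 35.1 CPM in P10. The adult values lay on both sides of the P10 values, and the log2 fold change was -0.03 (SE 0.17). The 11 sites not called ranged from -0.66 to 0.32 and included a strong site at -44.9 kb with an adult mean of 47.5 CPM ± 4.47 (SD, n = 3) and a P10 mean of 53.8 CPM ± 4.96 (SD, n = 3). Summed, these 11 sites held 140.2, 118.9 and 141.5 CPM in adults and 137.3, 140.1 and 139.6 CPM in P10. The 5 called sites held 250.2, 185.1 and 260.3 CPM against 140.8, 112.0 and 127.6 CPM, a split that follows from the calls and is given as a description. They thus held 60.9% to 64.8% of the *Pdk4* counts in adults and 44.4% to 50.6% in P10.

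**Figure D3:**
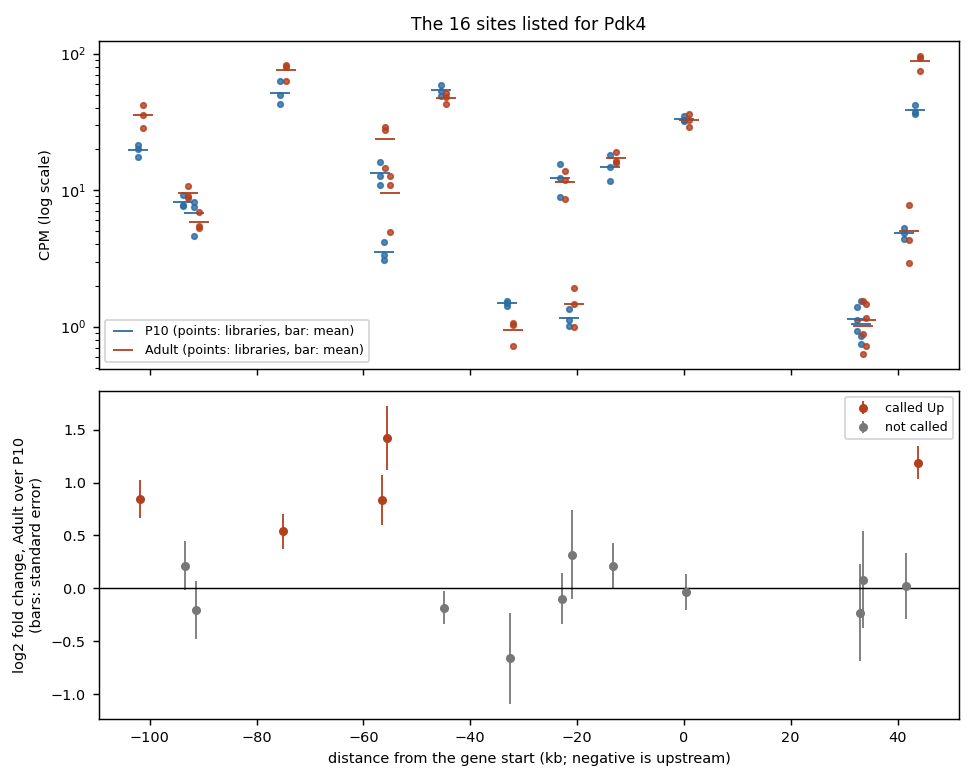
Top, CPM on a log axis in each library (points) with the group mean (bar) at the 16 *Pdk4* sites by distance from the gene start in kb; bottom, their log2 fold change with standard error. The 5 called sites lie at -102, -75.1, -56.4, -55.6 and +43.8 kb, while the promoter sits at a log2 fold change of -0.03.

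The ratio of a distant site to the promoter of the same gene does not depend on how libraries are scaled. For the +43.8 kb site this ratio was 2.84, 2.55 and 2.67 in adults and 1.13, 1.12 and 1.21 in P10, a log2 difference of 1.22. At the 5 Up sites of *Pdk4* the log2 difference of the ratio ran from 0.59 to 1.38. These sites were chosen for their rise in the same counts and the promoter had a log2 fold change of -0.03, so the separation of the ratios is a description and not further evidence. Of the DISTAL-class ACS of all genes 13.8% were called Up and 6.45% Down, beside 5 and 0 of the 15 DISTAL sites of *Pdk4*. Sites of 1 gene share a locus and are not independent counts. Scaling by total reads lowered the median of all ACS by 0.83 on the log2 scale and took 3 of the 5 Up sites below 0. Relative to that median the 5 sites stood 0.50 to 1.40 higher, which follows from the shift and does not say which scaling is right.

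The gene for the entry of long-chain fatty acids into mitochondria, *Cpt1a*, had 1 weak call. Per kb, its promoter site stood at the 18.1st percentile of the TSS class and its -1.53 kb site at the 73.9th of the PROXIMAL class. Its site at -2.29 kb (chr1:225435024-225435267) measured 2.26, 2.92 and 1.68 CPM in adults and 3.997, 3.78 and 3.70 CPM in P10. The groups did not overlap, and the log2 fold change was -0.73 (SE 0.33, edgeR FDR 0.193). The raw counts were only 25, 30 and 13 in adults and 86, 53 and 70 in P10. The call held in 1 of the 6 fits that left out a library, that without Adult 5, with log2 fold changes of -0.94 to -0.56, and was lost with DESeq2. The ratio of this site to the *Cpt1a* promoter overlapped between the ages. The promoter site at +0.502 kb (chr1:225437811-225438305) measured 4.88, 7.21 and 5.29 CPM in adults and 8.41, 8.49 and 4.92 CPM in P10. These values were intermixed, with a log2 fold change of -0.32 (SE 0.28, edgeR FDR 0.565). The strongest site, at -1.53 kb (chr1:225435782-225436202), measured 11.8, 9.45 and 7.09 CPM in adults and 12.2, 8.84 and 9.20 CPM in P10, again intermixed (log2 fold change -0.09, SE 0.24). The 5 sites not called ranged from -0.37 to 0.43.

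*Acadm*, the medium-chain dehydrogenase, combined a very open promoter with a single, faint site that fell. The promoter site at +0.455 kb (chr2:278812201-278813298) measured 186.4, 146.2 and 183.3 CPM in adults and 133.1, 153.0 and 148.5 CPM in P10. Adult 5 lay below P10 2, so the groups overlapped, and the log2 fold change was 0.25 (SE 0.14, edgeR FDR 0.337). It was called Up only in the fit without Adult 5 (0.35), of the 6 that left out a library. The site at -54.0 kb (chr2:278866677-278866900) measured 0.723, 0.487 and 0.258 CPM in adults and 1.35, 1.71 and 1.903 CPM in P10. Every adult library was lower, with a log2 fold change of -1.68 (SE 0.48, edgeR FDR 0.0255), the most negative of the 55 sites. It rested on 8, 5 and 2 counts in adults and 29, 24 and 36 in P10, and dropping any 1 of the 6 libraries kept the call. The authors called ACS on the pool of each age and then united them. A faint site can therefore be listed through 1 age alone, and which age listed this one is not given. The 7 sites not called ranged from -0.79 to 0.44, and the -27.9 kb site at the low end just missed the limit with an edgeR FDR of 0.232.

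*Acadl*, the long-chain dehydrogenase, had 1 site that rose and 1 that fell. The site at +69.3 kb (chr9:73503703-73504061), beyond the end of the gene, measured 13.6, 7.79 and 12.5 CPM in adults and 6.04, 5.78 and 5.71 CPM in P10. All adults were above all P10 libraries, with a log2 fold change of 0.95 (SE 0.25, edgeR FDR 0.0150) and a call that survived the omission of each of the 6 libraries. The site at +37.3 kb (chr9:73471678-73472018), inside the gene, measured 0.813, 1.27 and 1.68 CPM in adults and 1.95, 3.85 and 3.07 CPM in P10. It had a log2 fold change of -1.25 (SE 0.40, edgeR FDR 0.05001) and rested on 9 to 13 counts per adult library. This call was lost without Adult replicate 4 (log2 fold change -1.003) and without P10 replicate 2 (-1.04). As for the faint *Acadm* site, which age listed this site is not given. The promoter site at -0.327 kb (chr9:73434047-73434932) measured 42.5, 36.0 and 45.8 CPM in adults and 36.2, 35.5 and 37.9 CPM in P10, a log2 fold change of 0.18 (SE 0.16, edgeR FDR 0.591). Adult 5 lay among the P10 libraries. The strongest *Acadl* site, 1759 bp wide at +55035 bp (chr9:73489409-73491167), measured 69.5, 55.3 and 59.0 CPM in adults and 56.9, 62.2 and 59.8 CPM in P10. The ages were intermixed there (log2 fold change 0.04, SE 0.15).

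**Figure D4:**
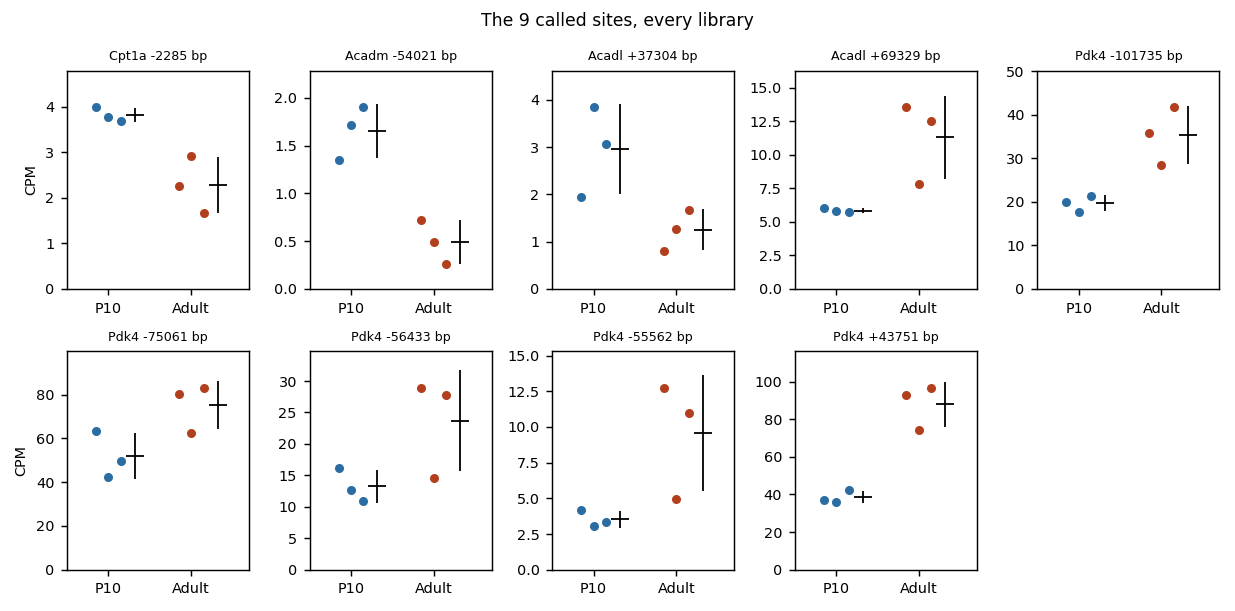
CPM in each library (points) at the 9 called sites, with the mean and SD beside each group of 3; every axis starts at 0. At *Pdk4* -56433 bp and -75061 bp the groups overlap by 1 library, and the 3 Down sites lie at or below 3.997 CPM in every library.

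On the lipogenic side, 0 of the 16 sites of *Acaca*, *Fasn*, *Scd*, *Srebf1* and *Mlxipl* were called with edgeR, DESeq2 or limma voom, and 1 had an unadjusted p under 0.05. The log2 fold changes were negative at 14 sites and positive at 2, with a median of -0.18 and a range of -0.54 to 0.36. Both positive sites and the most negative one are listed for *Srebf1* but overlap the neighbouring genes *Tom1l2* or *Rai1*. Among all ACS 51509 of 101603 were negative, and among TSS-class ACS 7248 of 11055. The sign is a count of estimates, most of them within 2 SE of 0. All adults were below all P10 libraries in 2 of the 16, as in 10.9% of all ACS, and the absence of calls stands beside 12.3% Up and 6.63% Down over all ACS. Limits of what could be seen are set by the SE, which ran from 0.16 to 0.43 at these sites.

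*Fasn*, the fatty acid synthase, came closest to a call. Its only site, the promoter at +0.319 kb (chr10:109596898-109598059), measured 34.5, 39.3 and 29.8 CPM in adults and 49.5, 43.2 and 40.3 CPM in P10. All adult libraries were below all P10 libraries, as at 1723 of all 11055 TSS-class ACS. The log2 fold change was -0.36 (SE 0.17), at the 18.5th percentile of its class. The edgeR FDR of 0.212 was just over the limit. Of the alternatives, column sums, DESeq2 size factors, cyclic loess, robust edgeR and a mean of at least 50 counts called it, with FDRs of 0.0769 to 0.186, as did the fit without Adult 5 (log2 fold change -0.46). DESeq2 and limma voom did not. *Acaca*, the acetyl-CoA carboxylase that supplies *Fasn*, had no TSS-class site. Its nearest and strongest site, 1089 bp wide at -16.5 kb (chr10:71415348-71416436), measured 46.8, 36.5 and 38.3 CPM in adults and 44.3, 50.6 and 39.0 CPM in P10. The groups overlapped, with a log2 fold change of -0.14 (SE 0.17, edgeR FDR 0.717).

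*Scd*, the stearoyl-CoA desaturase, is listed as *Scd1* in the table. Its larger promoter site at +0.126 kb (chr1:271615522-271616154) measured 7.59, 7.69 and 8.90 CPM in adults and 10.5, 9.99 and 8.14 CPM in P10. P10 3 lay among the adults, and the log2 fold change was -0.25 (SE 0.24, edgeR FDR 0.618). The strongest *Scd* site, at +20.1 kb (chr1:271595567-271596344) beyond the end of the gene, measured 38.7, 35.1 and 37.4 CPM in adults and 35.7, 40.3 and 36.4 CPM in P10. The values were intermixed within a narrow range, and the log2 fold change was -0.02 (SE 0.16).

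The regulators of lipogenesis were no different. *Srebf1* had its TSS-class site at +0.348 kb (chr10:46347680-46348041), with 4.43, 7.30 and 4.90 CPM in adults and 7.53, 6.42 and 5.23 CPM in P10, a log2 fold change of -0.20 (SE 0.28, edgeR FDR 0.750). Its site with the most counts, at -1.65 kb (chr10:46349680-46350407), measured 19.4, 17.7 and 15.7 CPM in adults and 24.1, 17.8 and 16.1 CPM in P10 (log2 fold change -0.13, SE 0.20). Both sites had overlapping groups. Inside the gene, a site reaching from 9882 to 10244 bp after the Rn5 start (chr10:46337784-46338146) was more accessible per kb than either of these, at 45.6 CPM per kb in adults and 48.5 in P10, the 96.3rd percentile of the DISTAL class. The 2 RefSeq starts whose promoters are printed above lie 10154 bp apart in GRCr8, a spacing within that interval. The builds were not aligned, so whether this site is the downstream promoter was not tested. It measured 18.6, 18.5 and 12.5 CPM in adults and 20.5, 17.6 and 14.7 CPM in P10, with a log2 fold change of -0.08 (SE 0.21, edgeR FDR 0.879). *Mlxipl*, matched by its gene ID because its symbol is blank in the table, had its promoter site at +0.283 kb (chr12:26620496-26621013). It measured 13.7, 10.7 and 9.41 CPM in adults and 14.0, 15.1 and 8.99 CPM in P10, a log2 fold change of -0.16 (SE 0.24, edgeR FDR 0.775), and the groups overlapped.

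Counts summed over all sites of a gene gave 1 call among the 9 genes, *Pdk4*. Its sum was 390.5, 304.0 and 401.8 CPM in adults and 278.1, 252.1 and 267.2 CPM in P10. Every adult library was higher, at a log2 fold change of 0.46 (SE 0.13) and an FDR of 0.0484 with edgeR over 14776 genes. Without P10 replicate 2 it was 0.41 and not called. Of all genes 8.71% were called Up and 4.64% Down. The sums of *Acadm* (0.17, SE 0.12), *Acadl* (0.10, SE 0.12) and *Cpt1a* (-0.11, SE 0.17) did not pass the test. The sums of all 5 lipogenic genes had negative estimates, from -0.10 (SE 0.14) at *Scd* to -0.36 (SE 0.16) at *Fasn*, beside 7586 of 14776 genes with negative sums, and 0 were called with edgeR. *Fasn* alone had an unadjusted p under 0.05, with an edgeR FDR of 0.215. DESeq2 called it Down (FDR 0.170), as did edgeR without Adult 5 (-0.46) and without P10 3 (-0.44). *Fasn* has 1 site, so its sum holds the same counts as that site and is not a second result.

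Other genes of the 2 pathways were read the same way, beside 8.71% of all gene sums called Up and 4.64% called Down. Of 31 further fat oxidation genes, 29 had sites, and 2 sums rose and 0 fell, with a median of 0.04 beside -0.01 over all genes. Those that rose were *Ppargc1a*, the coactivator of mitochondrial gene programmes (0.40, SE 0.12, edgeR FDR 0.0684), and *Acaa2*, the thiolase that ends each round of β-oxidation (0.34, SE 0.12, edgeR FDR 0.112). Of 29 further lipogenic genes, 27 had sites, and 3 sums rose and 3 fell, with a median of -0.10. *Lpin1*, a phosphatidate phosphatase (0.56, SE 0.12, edgeR FDR 0.0114), *Insig2*, which holds SREBP in the endoplasmic reticulum (0.45, SE 0.12, edgeR FDR 0.0366), and *Elovl5*, an elongase of polyunsaturated fatty acids (0.31, SE 0.12, edgeR FDR 0.161), rose. *Thrsp*, a lipogenic cofactor (-1.34, SE 0.38, edgeR FDR 0.0481), *Fads1*, the Δ5 desaturase (-0.53, SE 0.19, edgeR FDR 0.117), and *Dgat2*, which makes triglyceride (-0.48, SE 0.19, edgeR FDR 0.157), fell. The calls of *Lpin1*, *Insig2* and *Thrsp* held without each library in turn. Those of *Ppargc1a* (0.34 and 0.35) and *Fads1* (-0.38 and -0.56) were lost without Adult 6 and without P10 2. *Acaa2* (0.28 to 0.32) and *Elovl5* (0.24 to 0.31) lost theirs without Adult 4, Adult 6, P10 2 or P10 3, and *Dgat2* (-0.56 to -0.40) without any 1 adult or without P10 2. With cyclic loess the calls of *Acaa2* (0.19, FDR 0.268), *Elovl5* (0.16, FDR 0.338) and *Dgat2* (-0.39, FDR 0.218) were lost too, and with column sums that of *Elovl5* (0.21, FDR 0.232). *Thrsp* had 1 site with 0.516 to 1.898 CPM in adults and 2.86 to 4.09 CPM in P10. *Echs1*, *Etfdh*, *Elovl6* and *Mlxip* had no listed site. At the level of single sites, 22 of the 155 sites of the further fat oxidation genes were called Up and 13 Down, and of the 168 sites of the further lipogenic genes 26 were Up and 12 Down. These are 14.2% and 15.5% Up and 8.39% and 7.14% Down, near the shares of all ACS.

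**Figure D5:**
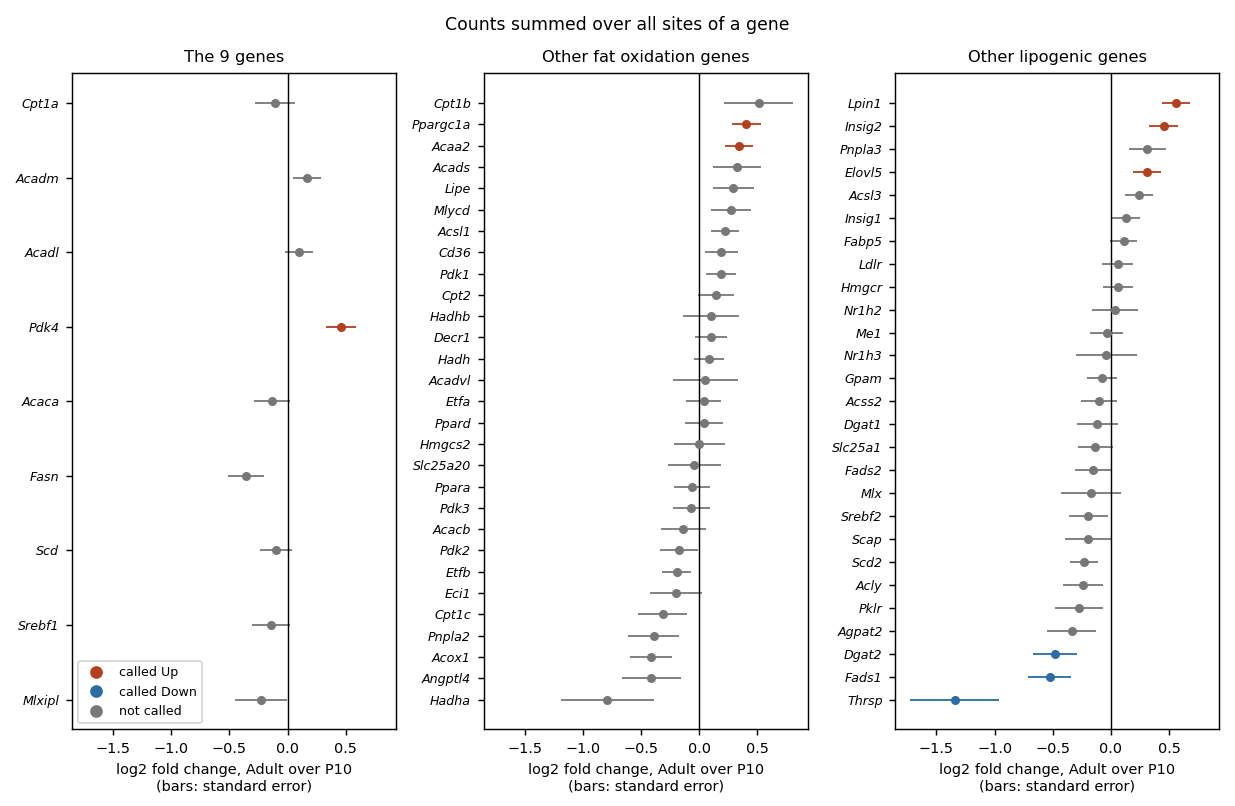
Log2 fold change (Adult over P10) with its standard error for counts summed over all sites of a gene, for the 9 genes and for the 29 and 27 further genes of each pathway with sites. *Pdk4* is the only called gene on the left, and calls on the right fall on both sides of 0.

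The libraries are of whole islet cells, in which a change in the share of a cell type and a change of chromatin within cells cannot be told apart. Sites of β-cell marker genes summed to 904.5 to 1043 CPM in adults and 850.9 to 1153 CPM in P10, and no site of any marker list was at 0 in a library. For 4 of 10 marker lists the adult libraries lay wholly above the P10 libraries. These were α-cell (718.4 to 824.7 against 584.1 to 665.7 CPM), endothelial (407.5 to 483.4 against 364.2 to 386.8), duct (261.8 to 296.5 against 230.9 to 247.9) and adipocyte markers (298.4 to 308.7 against 285.5 to 292.9). The other 6 (β-cell, δ-cell, acinar, immune, mesenchymal and cell cycle) overlapped, but held called genes. Up were the sums of *Nkx6-1* (0.35, SE 0.13) and *Cd74* (0.73, SE 0.16). Down were *Ins1* (-0.58, SE 0.13), *Hhex* (-0.53, SE 0.16), *Prss1* (-0.85, SE 0.27) and *Amy2a3* (-0.72, SE 0.25). Of all gene sums 8.71% were called Up and 4.64% Down. Within the 4 lists single genes went both ways. Gene sums had positive and negative estimates in 3 and 1 α-cell, 3 and 3 endothelial, 3 and 2 duct, and 5 and 3 adipocyte genes. The sums of *Irx1* (0.49, SE 0.12), *Cdh5* (0.53, SE 0.12), *Kdr* (0.33, SE 0.14) and *Cftr* (0.62, SE 0.15) were called Up. *Muc1* of the duct list was called Down (-0.63, SE 0.19), and the estimate was negative at *Gcg* (-0.23, SE 0.16). *Irx1* and *Irx2* held 50 and 25 of the 97 α-cell sites. Of single sites, 21 of 97 were Up and 3 Down in the α-cell list, 10 of 59 and 2 in the endothelial, 4 of 40 and 6 in the duct, and 3 of 31 and 0 in the adipocyte list, beside 12.3% and 6.63% of all ACS. The summed CPM of these 4 lists moved in the same direction as the Up sites of *Pdk4* and *Acadl*, and their part in those differences was not tested.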

How the data were processed

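ATAC-seq of 3 Adult and 3 P10 rat islet cell libraries was analysed. The authors aligned reads to Rn5 with BWA 0.7.13, removed mitochondrial reads and those with MAPQ below 30, called ACS with MACS2 2.1.1 on the pooled samples of each age, and deposited raw counts, made with pyDNase as the number of Tn5 insertions of each library within each ACS, with no normalization. FastQC 0.11.2 and SAMtools 1.3 are in the submitters' processing notes. Whether PCR duplicates were removed is not given in the sources used here, so SEs cover the counts as they stand. The authors also deposited columns of their own edgeR comparison of the ages (fold change and mean CPM on the log2 scale, an F score, p-value and FDR), which were not used.

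Of 101941 entries, 338 repeated an ACS, and each of 101603 distinct ACS was tested once. Members were matched by symbol, otherwise by RefSeq gene ID (*Scd* as *Scd1*, and *Mlxipl* with a blank symbol). Counts were fitted with edgeR 4.0.16 in R 4.3.3 (TMM, estimateDisp, glmQLFit, glmQLFTest, two-sided, no covariate, all 6 libraries), for each ACS and for sums per gene. The SE is the absolute log2 fold change divided by the square root of F. The test was tried on simulated counts. Neighbouring genes were taken from listed genes spanning at most 1000000 bp. The distance of a site is measured from its end with the lower coordinate, and 5 ACS lie outside the class limits.

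Named are, for each member, the TSS-class ACS with the most counts or otherwise the nearest ACS, the ACS with the highest mean CPM, and every called ACS. Of the pathway lists, called genes are named. The -27.9 kb *Acadm* site, the -44.9 kb *Pdk4* site and the intragenic *Srebf1* site were chosen after their values were seen. Members and lists were chosen with earlier results of these data known. Alternatives were column sums, total reads, DESeq2 1.42.0 and its size factors, limma 3.58.1 (voom, or cyclic loess with limma-trend), robust edgeR, filterByExpr (minimum count 10, total 15), a mean of at least 50 counts, FDR under 0.05, and leaving out each library. Matching by exact symbol was added after seeing the data. Promoters are RefSeq sequences of GRCr8; 6 members had 8 entries. Figures were drawn with matplotlib 3.10.9.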

Additional observations from a re-analysis of the deposited data

How the results depend on the processing

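No paired analysis was possible because the replicate numbers (4, 5 and 6 for Adult, 1, 2 and 3 for P10) are shared by no 2 libraries. Replicates of 1 age differed by more than independent counts would (chi-square per degree of freedom 3.35 to 7.81). PCR duplicates would also raise this value and their removal is not given, so it cannot show that libraries are separate samples. All 6 libraries were used as the separate animals and litters that the study describes. Scaling by total reads shifted the median log2 fold change of all ACS from -0.01 to -0.84. Whether that shift is technical or a real overall difference was not tested. Subtracting it returns the folds of TMM nearly unchanged by construction. Absolute values under total reads were reversed for *Pdk4* at -101735 bp (-0.0044), -75061 bp (-0.34) and -56433 bp (-0.043) and for the sums of *Pdk4* (-0.39), *Acaa2* (-0.51), *Ppargc1a* (-0.43), *Elovl5* (-0.53), *Lpin1* (-0.29) and *Insig2* (-0.38). No other alternative reversed any of the 20 single results tried (the 18 called ones and the site and sum of *Fasn*). Of their 316 values under alternatives, 253 stayed on the same side of the limits, 40 lost a call and 14, all of *Fasn*, gained one.

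Member sites called Up were 6, with 0 under total reads and 5 to 7 without 1 library. Those called Down were 3, with 1 at FDR under 0.05, 5 with column sums, 40 with total reads, 5 with cyclic loess, 1 with a mean of at least 50 counts, and 1 to 5 without 1 library (1 without Adult 4 or without P10 2, 5 without Adult 5). Member sums called Up were 1, with 0 under total reads and 0 to 2 without 1 library. Those called Down were 0, with 1 each under column sums, DESeq2 size factors, cyclic loess and DESeq2, 8 with total reads, and 0 to 1 without 1 library. Pathway sites Up were 48, with 4 under total reads; pathway sites Down were 25, with 3 at FDR under 0.05, 40 with column sums, 208 with total reads, 16 with a mean of at least 50 counts, and 12 to 22 without 1 library. Pathway sums Up were 5, with 2 at FDR under 0.05, 0 with total reads and 2 to 10 without 1 library. Pathway sums Down were 3, with 1 at FDR under 0.05, 8 with column sums, 49 with total reads, 5 with cyclic loess, and 1 to 4 without 1 library.

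Over all ACS, 12504 were Up, with 7177 at FDR under 0.05, 1062 with total reads and 7973 to 13232 without 1 library. Down were 6738, with 1945 at FDR under 0.05, 10732 with column sums, 61663 with total reads, 4410 with a mean of at least 50 counts, and 3285 to 7215 without 1 library. Sums of all genes were Up for 1287, with 421 at FDR under 0.05, 11 with total reads and 394 to 2065 without 1 library. They were Down for 686, with 124 at FDR under 0.05, 2182 with column sums, 12745 with total reads and 195 to 938 without 1 library. The lowest all-ACS counts without 1 library came without P10 2. The causes were not tested. Matching by exact symbol left 49 sites with 6 Up and 3 Down. Depth limits the faint sites, since 17 of the 55 had a mean under 50 counts, and the lowest had 14.8.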
